A study of Mus musculus with 11 samples.

Results

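The genes described here make cholesterol and fatty acids in the cell, sense how much sterol is present, or move and store the products. The set comprised 36 mouse genes listed by name: 14 enzymes of cholesterol synthesis, 5 genes of the SREBP pathway, 5 genes of the LXR pathway, the oxysterol enzyme Ch25h and the sterol carrier Stard4, 8 enzymes of fatty acid synthesis and desaturation, and the lipins Lpin1 and Lpin2. Of these, 35 were in the deposited table of 26061 genes, and Hmgcs1 was not analysed here. After genes with low values were set aside, 33 of the 35 remained among 12486 genes tested. Ch25h and Fads2 were set aside. The genes were measured in BV2 cells, an immortalised mouse microglial line, by sequencing of polyA RNA. Cells were transfected with siRNA against Tet2, an enzyme that oxidises methylated cytosine in DNA, or with a control siRNA that has no target. From 48 h after transfection some were given LPS, a component of the bacterial outer membrane, at 1 µg/ml for 3 h. The rest served as the control that the labels give for LPS, called untreated here. The 4 groups were control siRNA untreated (3 libraries), control siRNA with LPS (3), Tet2 siRNA untreated (3) and Tet2 siRNA with LPS (2, numbered 2 and 3). All the groups shared the line, the transfection and the serum, given as 10% for growth and 5% for treatment. No library of untransfected cells was used here. The labels number the libraries within a group but do not say that they came from separate cultures, so p-values measure the spread between these libraries, which may be technical.

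Cholesterol is built from acetyl-CoA by the mevalonate pathway, and its genes are switched on together by the transcription factor SREBP2 when sterols in the endoplasmic reticulum run low. Scap escorts SREBP proteins to the Golgi for activation, and the Insig proteins hold Scap back when sterols are plentiful. When sterols accumulate, oxysterols bind the nuclear receptors LXR, which raise the cholesterol exporters Abca1 and Abcg1 and the ubiquitin ligase Mylip, which limits cholesterol uptake. In macrophages and microglia these pathways are known to be tied to inflammatory activation, since LPS changes how these cells make and store lipid.

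Promoter sequences of RefSeq (GRCm38.p6) were found for 27 of the 35 genes, in 38 windows of the 250 bases before an annotated start, as some genes have several starts. They are shown for Lpin1, Insig2 and Mylip, whose RNA changed with LPS in both siRNA groups, and for Cyp51 and Mvd as cholesterol enzymes. Each is written 5′ to 3′ on the gene's strand, with matches to the searched motifs in capitals.
Lpin1 (chr12:16610967-16611216, minus strand): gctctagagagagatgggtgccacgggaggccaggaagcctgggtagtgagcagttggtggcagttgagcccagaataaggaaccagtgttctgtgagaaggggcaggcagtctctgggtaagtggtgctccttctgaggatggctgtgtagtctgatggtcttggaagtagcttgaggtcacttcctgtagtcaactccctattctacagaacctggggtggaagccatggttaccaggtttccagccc
Insig2, most upstream of its starts (chr1:121332590-121332839, minus strand): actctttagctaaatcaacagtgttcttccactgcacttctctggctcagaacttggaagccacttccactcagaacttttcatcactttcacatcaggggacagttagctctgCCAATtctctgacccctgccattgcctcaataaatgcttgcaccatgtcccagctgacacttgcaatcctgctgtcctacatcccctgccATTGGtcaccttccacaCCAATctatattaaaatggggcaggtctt
Mylip (chr13:45389492-45389741, plus strand): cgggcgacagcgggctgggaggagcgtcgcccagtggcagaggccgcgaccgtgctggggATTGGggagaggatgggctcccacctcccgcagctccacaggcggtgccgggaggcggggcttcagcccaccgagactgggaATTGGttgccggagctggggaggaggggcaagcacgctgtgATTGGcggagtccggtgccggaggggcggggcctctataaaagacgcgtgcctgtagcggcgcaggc
Cyp51 (chr5:4104698-4104947, minus strand): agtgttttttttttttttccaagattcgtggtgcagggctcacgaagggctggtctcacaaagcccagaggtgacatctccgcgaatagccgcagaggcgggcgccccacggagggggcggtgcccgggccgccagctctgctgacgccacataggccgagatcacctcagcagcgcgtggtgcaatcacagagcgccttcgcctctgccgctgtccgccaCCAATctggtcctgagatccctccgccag
Mvd (chr8:122443423-122443672, minus strand): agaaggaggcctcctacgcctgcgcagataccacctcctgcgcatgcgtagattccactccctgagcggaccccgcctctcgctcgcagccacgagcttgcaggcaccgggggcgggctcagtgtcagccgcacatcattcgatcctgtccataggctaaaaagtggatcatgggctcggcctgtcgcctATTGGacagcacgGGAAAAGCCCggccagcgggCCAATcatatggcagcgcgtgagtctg
The capitals in Insig2, Mylip and Cyp51 are CCAAT boxes on either strand. They are bound by the factor NF-Y, which works beside SREBP at sterol genes. Mvd has 2 of them and, between them, a match to the NF-kB motif. The windows of the other Insig2 starts, not shown, had 0 matches to the searched motifs. Which start is used in BV2 cells was not tested. The motifs searched, on both strands, were the CCAAT box, the E-box CACGTG, the SREBP site, the LXR DR4 element, the NF-kB site and the interferon-stimulated response element core.
The CCAAT box was in at least 1 window of all 10 cholesterol enzymes that had a promoter sequence, and in 76.9% of their 13 windows. It was in 47.4% of the 38 windows of the whole gene set, in 20% of those of the LXR genes and 20% of those of the fatty acid genes, against 33.8% of 32851 promoter windows of the same length. The E-box was in 15.8% of the 38 windows of the whole gene set, against 6.02% of all windows. The NF-kB motif was in the Mvd window alone among the 38, against 1.41% of all windows. The SREBP, LXR and interferon motifs matched none of the 38 windows, and 1.05%, 0.0152% and 2.98% of all windows. These counts describe the letters in these windows only.

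Reads assigned to genes ranged from 8739716 to 23030426 per library (median 18844761). Least deeply sequenced were control siRNA untreated 3, in which 16406 genes were detected against 12866 to 14180 in the other 10, and Tet2 siRNA untreated 2. The targeted gene, Tet2, had 2071 ± 295 normalised reads (SD, n = 3) in control siRNA untreated cells and 1701 ± 269 (SD, n = 3) in Tet2 siRNA untreated cells, with overlapping ranges. In LPS-treated cells it had 13986 ± 3263 (SD, n = 3) and 8603 ± 897 (SD, n = 2), without overlap. The Tet2 siRNA difference did not pass the test in either state (−0.28 untreated, adjusted p = 0.566, and −0.67 with LPS, adjusted p = 0.165, log2 scale, limma), so Tet2 siRNA names the label of a library throughout, and not a reduction that passed the test. All 13 microglia and macrophage markers in the table passed the filter, among them Csf1r and Cd68, while P2ry12 (mean 14.8 normalised reads in control siRNA untreated cells), Tmem119 (33.5) and Cx3cr1 (89.1), markers of resting brain microglia, were low. The markers Mog of oligodendrocytes, Cldn5 of endothelium and Dcn of fibroblasts had 0 reads in every library. In bulk RNA, fewer cells that express a gene and less RNA per cell cannot be told apart.

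LPS changed a few of these lipid genes strongly while most of them did not pass the test. In control siRNA cells Lpin1 fell to a small fraction of its level, Insig2 rose, and Mylip, Scd2, Fads1, Lss and Dhcr7 fell. In total 7 of 33 genes (21.2%) passed limma's test at an adjusted p under 0.05, 1 higher and 6 lower. Of all 12486 genes 23.7% passed, 13.2% higher and 10.4% lower, so the share in the set was near the background. Before adjustment 10 of 33 were under 0.05, against 34.7% of all genes. The median difference was −0.12 on the log2 scale over the 33 genes and −0.02 over all genes. In Tet2 siRNA cells 4 of 33 genes (12.1%) passed, Insig2 higher and Lpin1, Mylip and Scd2 lower. Of all genes 11.9% passed there, 7.14% higher and 4.77% lower, and the median difference was 0.00 both in the set and over all genes. Before adjustment 5 of 33 were under 0.05, against 22% of all genes (limma). The adipocyte and hepatocyte marker list, of which only Fabp4 passed the filter and Ttr and Adipoq had 0 reads, summed to 3628 to 7361 normalised reads in control siRNA untreated libraries and 7690 to 11871 with LPS. In Tet2 siRNA cells the sums overlapped, at 3613 to 6635 untreated and 5150 to 6495 with LPS. Alb, the remaining gene of that list, had a mean of at most 0.375 normalised reads in any group, so these sums were those of Fabp4. The part of Fabp4 in these results was not tested.

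**Figure D1:**
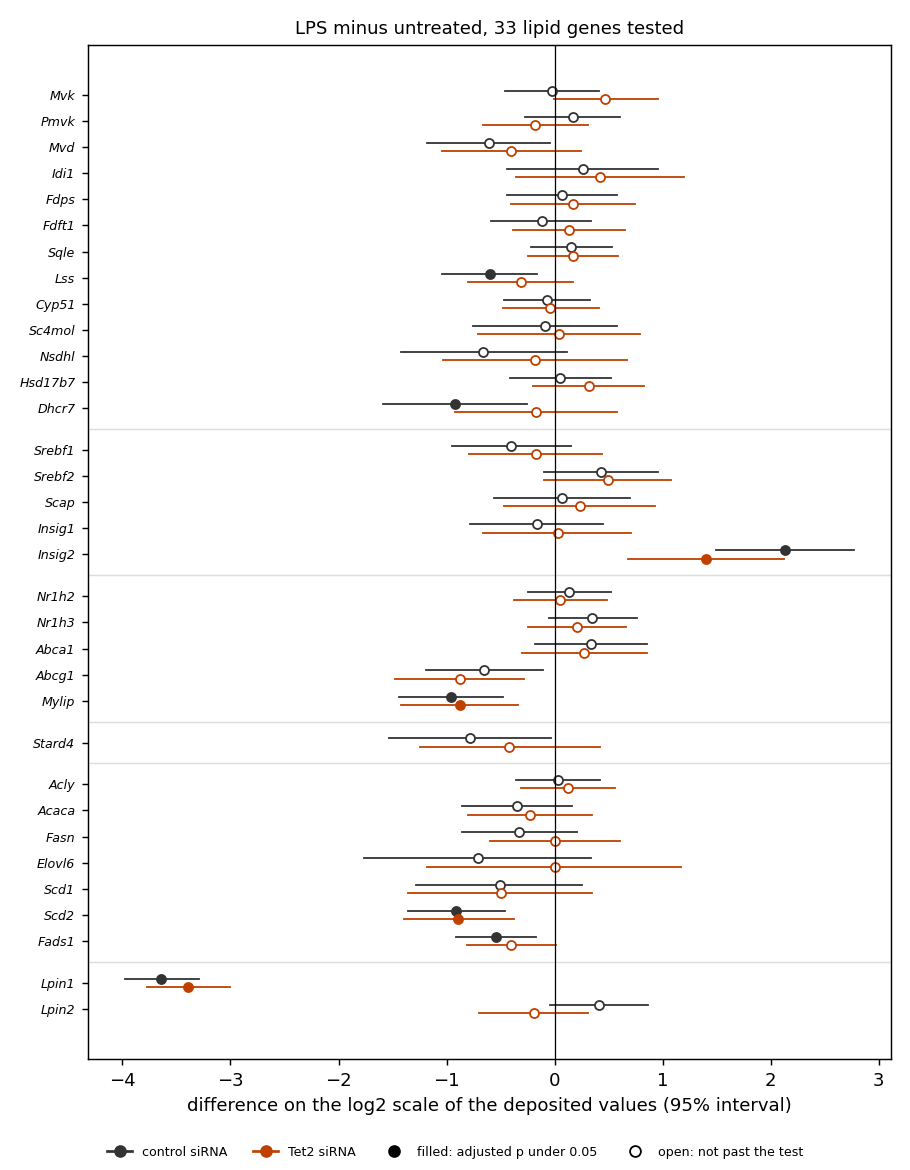
LPS minus untreated for the 33 lipid genes tested, on the log2 scale of the deposited values, with 95% intervals from limma; black points are control siRNA cells and orange points Tet2 siRNA cells, filled where the adjusted p is under 0.05. Lpin1 lies near −3.64 and −3.39 and Insig2 near 2.13 and 1.40, while most other intervals include 0.

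Lpin1 encodes a phosphatidate phosphatase that makes diacylglycerol for triglyceride synthesis and also acts in the nucleus as a coregulator. Its normalised reads were 659, 739 and 587 in the control siRNA untreated libraries and 30.4, 25.7 and 27.5 with LPS. After Tet2 siRNA they were 555, 470 and 526 untreated and 24.1 and 25.8 with LPS. Every LPS library was far below every untreated library in both siRNA groups. Lpin1 was 23.7-fold lower with LPS in control siRNA cells (log2 difference −3.64, SE 0.16, adjusted p = 1.18e-08, limma). It was 20.7-fold lower in Tet2 siRNA cells (−3.39, SE 0.18, adjusted p = 1.27e-07, limma). The fold is the ratio of mean normalised reads, and the log2 difference is on the deposited scale, which understates changes at low reads.

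Lpin2, the other lipin of the set, did not pass the test with LPS. In control siRNA cells it had 1955, 1627 and 1195 normalised reads untreated and 2426, 2205 and 1692 with LPS (log2 difference 0.41, SE 0.21, adjusted p = 0.183, limma). After Tet2 siRNA it had 1807, 1361 and 1282 untreated and 1186 and 1379 with LPS (−0.19, SE 0.23, adjusted p = 0.752, limma). The untreated and LPS ranges overlapped in both siRNA groups. Per kilobase of exon, the level of Lpin1 was 107 ± 12.3 and that of Lpin2 254 ± 60.9 normalised reads in control siRNA untreated cells (SD, n = 3), and 4.50 ± 0.379 and 337 ± 60.1 with LPS (SD, n = 3). Lpin1 was thus the lower of the pair in both states, and the gap was wider with LPS.

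**Figure D2:**
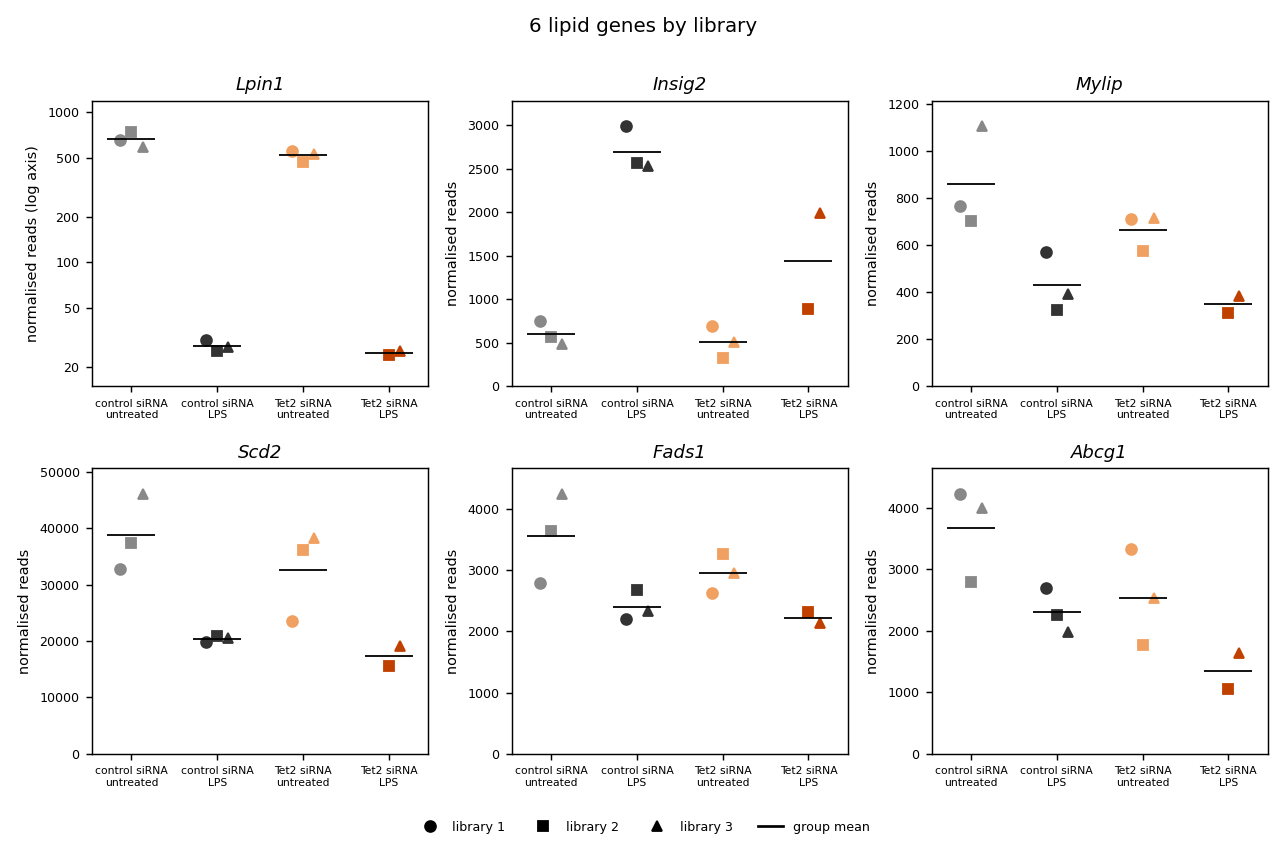
Normalised reads of Lpin1 (log axis), Insig2, Mylip, Scd2, Fads1 and Abcg1 in each of the 11 libraries, by group; symbols give the library number and the horizontal line the group mean. Lpin1 falls from 587 to 739 in control siRNA untreated libraries to 25.7 to 30.4 with LPS, and the 2 Tet2 siRNA LPS libraries of Insig2 stand apart at 887 and 1992.

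Among the SREBP genes, Insig2 rose with LPS and the other 4 did not pass the test. Insig2 encodes an endoplasmic reticulum protein that retains Scap and the SREBP precursors. It had 747, 568 and 481 normalised reads in control siRNA untreated libraries and 2987, 2572 and 2528 with LPS. That was 4.50-fold higher (log2 difference 2.13, SE 0.30, adjusted p = 0.000164, limma), with no overlap. After Tet2 siRNA, Insig2 had 692, 324 and 503 normalised reads untreated and 887 and 1992 with LPS. It was 2.84-fold higher there (1.40, SE 0.33, adjusted p = 0.0136, limma), and both LPS libraries lay above all untreated ones. The call in Tet2 siRNA cells was lost without Tet2 siRNA LPS 3, where the log2 difference was 0.83, and the difference was 1.97 without Tet2 siRNA LPS 2. It was also lost in a fit of only the groups compared (adjusted p = 0.0816, limma) and with no filter on low values (adjusted p = 0.129, limma).

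Insig1, the paralogue of Insig2 and itself a classic SREBP target, had 1345, 2206 and 1223 normalised reads in control siRNA untreated libraries and 1056, 1924 and 1264 with LPS (log2 difference −0.16, SE 0.28, adjusted p = 0.734, limma). Its ranges overlapped in both siRNA groups. Per kilobase of exon, Insig1 stood at 590 ± 199 and Insig2 at 203 ± 45.9 normalised reads in control siRNA untreated cells (SD, n = 3). With LPS the order turned, with Insig1 at 525 ± 168 and Insig2 at 913 ± 85.9 (SD, n = 3), and the ranges of the pair did not overlap in either state. After Tet2 siRNA and LPS they were 568 ± 138 and 487 ± 265 (SD, n = 2) and overlapped. Srebf2, which encodes SREBP2, differed with LPS by 0.43 (SE 0.24, adjusted p = 0.234, limma) under control siRNA and by 0.49 (SE 0.27, adjusted p = 0.346, limma) under Tet2 siRNA. Srebf1, which encodes the SREBP1 forms that favour fatty acid genes, differed by −0.40 (SE 0.25, adjusted p = 0.295, limma), and Scap by 0.07 (SE 0.29, adjusted p = 0.896, limma), in control siRNA cells.

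The cholesterol enzymes did not move as a block with LPS. Of the 13 measured, 2 fell in control siRNA cells and 0 passed the test in Tet2 siRNA cells, where the smallest adjusted p was 0.239 and 0 were under 0.05 before adjustment (limma). The median log2 difference was −0.07 in control and 0.04 in Tet2 siRNA cells. Those that fell were Lss, the cyclase that closes the sterol rings to lanosterol, and Dhcr7, the reductase of the last step to cholesterol. Lss had 595, 832 and 878 normalised reads in control siRNA untreated libraries and 533, 539 and 406 with LPS (log2 difference −0.60, SE 0.20, adjusted p = 0.047, limma). Dhcr7 had 305, 418 and 843 untreated and 252, 184 and 285 with LPS (−0.92, SE 0.31, adjusted p = 0.0462, limma). Neither gene's ranges overlapped, but both gaps were small against the spread of the untreated libraries. Each of these calls was lost when any of 8 of the 11 libraries was left out: control siRNA untreated 2 or 3, any of the control siRNA LPS libraries, Tet2 siRNA untreated 3, or either Tet2 siRNA LPS library. The difference then lay between −0.67 and −0.48 for Lss and between −1.04 and −0.53 for Dhcr7, with −0.53 reached without control siRNA untreated 3, which is also the library with the most genes detected. Both calls were also lost with no filter on low values, in a fit of only the groups compared and with voom.

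The other cholesterol enzymes gave differences from −0.66 to 0.26 with LPS in control siRNA cells and none passed the test. Mvd, which makes isopentenyl diphosphate, had 519, 1027 and 771 normalised reads untreated and 393, 619 and 442 with LPS (log2 difference −0.61, SE 0.26, adjusted p = 0.116, limma). Nsdhl, which removes a methyl group from the sterol core, differed by −0.66 (SE 0.35, adjusted p = 0.209, limma). Sqle, the squalene epoxidase that limits flux in the later pathway, differed by 0.15 (SE 0.17, 95% interval −0.22 to 0.53), and Cyp51, the lanosterol demethylase, by −0.07 (SE 0.18, 95% interval −0.47 to 0.33). Idi1, Fdps, Fdft1, Mvk, Pmvk, Sc4mol and Hsd17b7, which act between mevalonate and the sterol ring or on it, had differences between −0.12 and 0.26. Summed over the 13 enzymes, normalised reads were 13989 ± 2903 untreated and 13229 ± 3262 with LPS in control siRNA cells (SD, n = 3 each), and 13266 ± 1883 (SD, n = 3) and 13622 ± 742 (SD, n = 2) in Tet2 siRNA cells. The group means differed by less than the spread within the control groups.

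Within each group the cholesterol enzymes tended to be high or low in the same library. Library 2 was the highest of its group for 9 of 13 enzymes in control siRNA untreated cells, 10 in control siRNA LPS cells, 12 in Tet2 siRNA untreated cells and 12 in Tet2 siRNA LPS cells. Over all 12486 genes the same library was the highest for 28.9%, 33.2%, 41.4% and 48.4%. Library 1 was the lowest for 10, 9 and 12 of 13 in the 3 groups that hold it. The share of all genes that were lowest in library 1 was not counted. Tet2 siRNA LPS cells have libraries 2 and 3 only, so their means, sum and differences lack a library 1. The summed reads of the 13 enzymes in libraries 1, 2 and 3 were 12089, 17331 and 12548 in control siRNA untreated cells, 9933, 16456 and 13299 with LPS, and 11190, 14863 and 13744 in Tet2 siRNA untreated cells. The labels do not say what the number stands for. In Tet2 siRNA untreated libraries 1, 2 and 3 the same order was seen for Insig1, at 1070, 1941 and 1564 normalised reads, and for Stard4, at 404, 1047 and 719. Control siRNA LPS libraries also kept it, with Insig1 at 1056, 1924 and 1264 and Stard4 at 215, 433 and 378. Control siRNA untreated libraries did not, since library 3 was the lowest for both genes. Insig1 had 1345, 2206 and 1223 there and Stard4 550, 848 and 432.

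**Figure D3:**
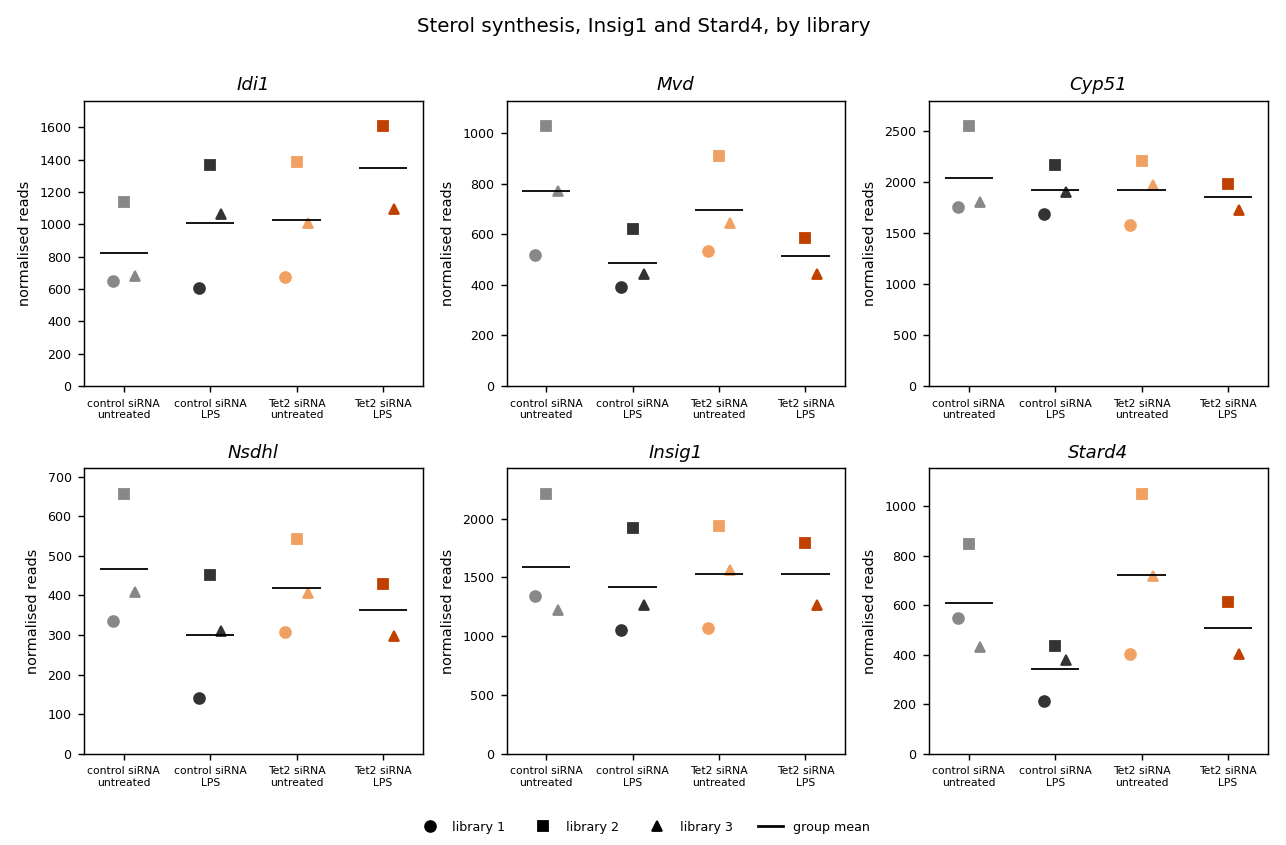
Normalised reads of the cholesterol enzymes Idi1, Mvd, Cyp51 and Nsdhl, of Insig1 and of the sterol carrier Stard4 in each of the 11 libraries; symbols give the library number and the line the group mean. The genes were chosen after their values were seen, to show the pattern by library; the squares, library 2, are the highest point of every group in each panel, and the LPS and untreated ranges overlap.

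Stard4 encodes a small protein that carries cholesterol between membranes. It had 550, 848 and 432 normalised reads in control siRNA untreated libraries and 215, 433 and 378 with LPS (log2 difference −0.78, SE 0.34, adjusted p = 0.126, limma), with touching ranges. The difference in Tet2 siRNA cells was −0.42 (SE 0.39, adjusted p = 0.652, limma). Ch25h, the cholesterol 25-hydroxylase, which LPS is known to induce in macrophages, had 5 reads in control siRNA untreated 3 and 0 reads in the other 10 libraries. A count of 0 allows up to 3 reads, or 0.13 to 0.343 RPM (reads scaled to a common depth) in these libraries, counting error only. No Ch25h read was detected with LPS in either siRNA group.

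Of the 5 LXR genes, Mylip fell with LPS in both siRNA groups. It had 768, 704 and 1105 normalised reads in control siRNA untreated libraries and 570, 325 and 392 with LPS, 2.0-fold lower (log2 difference −0.96, SE 0.22, adjusted p = 0.00664, limma). In Tet2 siRNA cells it had 710, 573 and 716 untreated and 311 and 385 with LPS (−0.88, SE 0.25, adjusted p = 0.0347, limma). All LPS libraries lay below all untreated ones within each siRNA group. The call in Tet2 siRNA cells was lost without Tet2 siRNA untreated 1 or 3 or either Tet2 siRNA LPS library, with differences of −1.02 to −0.74, and with no filter on low values (adjusted p = 0.155, limma).

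Abcg1, which exports cholesterol to HDL, narrowly missed the threshold. It had 4222, 2797 and 4002 normalised reads in control siRNA untreated libraries and 2693, 2252 and 1985 with LPS (log2 difference −0.65, SE 0.25, adjusted p = 0.0779, limma). The Tet2 siRNA libraries had 3332, 1766 and 2530 untreated and 1061 and 1646 with LPS (−0.88, SE 0.28, adjusted p = 0.0598, limma). The LPS libraries were below the untreated ones in both siRNA groups without overlap. Abca1, which exports cholesterol to lipid-poor apolipoprotein A-I, differed in the other direction without passing the test. It had 3709, 3154 and 2776 normalised reads untreated and 4199, 3679 and 4272 with LPS in control siRNA cells (0.34, SE 0.24, adjusted p = 0.349, limma). The receptors Nr1h3 (LXR alpha) and Nr1h2 (LXR beta) differed by 0.35 (SE 0.19, adjusted p = 0.204, limma) and 0.13 (SE 0.18, adjusted p = 0.65, limma). Per kilobase of exon, Nr1h2 stood at 246 ± 53.4 and Nr1h3 at 102 ± 13.8 normalised reads in control siRNA untreated cells (SD, n = 3).

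Among the 7 fatty acid enzymes tested, Scd2 and Fads1 fell in control siRNA cells and Scd2 in Tet2 siRNA cells. Scd2 is a stearoyl-CoA desaturase, which makes monounsaturated fatty acids. It had 32820, 37399 and 45969 normalised reads in control siRNA untreated libraries and 19805, 20898 and 20536 with LPS, 1.90-fold lower (log2 difference −0.91, SE 0.21, adjusted p = 0.0063, limma). With Tet2 siRNA it had 23593, 36109 and 38267 untreated and 15610 and 19029 with LPS (−0.89, SE 0.23, adjusted p = 0.0233, limma). The LPS libraries were again all below the untreated ones. Without Tet2 siRNA untreated 2 or 3, or either Tet2 siRNA LPS library, the call in Tet2 siRNA cells was lost, at −1.03 to −0.75. It was also lost in a fit of only the groups compared (adjusted p = 0.0649, limma) and with no filter on low values (adjusted p = 0.135, limma), and the call in control siRNA cells with no filter.

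Fads1, the delta-5 desaturase of polyunsaturated fatty acids, had 2790, 3628 and 4232 normalised reads in control siRNA untreated libraries and 2201, 2679 and 2323 with LPS (log2 difference −0.54, SE 0.17, adjusted p = 0.0345, limma). The highest LPS library lay just below the lowest untreated one. The call was lost without control siRNA untreated 2 or 3, control siRNA LPS 1 or 3, or Tet2 siRNA untreated 3, at −0.54 to −0.41, and also with no filter or only the groups compared. In Tet2 siRNA cells the difference was −0.40 (SE 0.19, adjusted p = 0.249, limma). Fads2, the delta-6 desaturase, had 0 reads in all 11 libraries.

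The enzymes that build saturated fatty acids did not pass the test. Acly, which makes cytosolic acetyl-CoA, differed by 0.03 with LPS in control siRNA cells (SE 0.18, 95% interval −0.36 to 0.42). Acaca, which makes malonyl-CoA, differed by −0.35 (SE 0.24, adjusted p = 0.325, limma), and Fasn, the fatty acid synthase, by −0.33 (SE 0.25, adjusted p = 0.388, limma). Elovl6, which lengthens palmitate, had 284, 610 and 336 normalised reads untreated and 148, 306 and 250 with LPS (−0.71, SE 0.48, adjusted p = 0.333, limma). Scd1, a paralogue of Scd2, had 24.7 to 146 normalised reads in the control siRNA libraries. Per kilobase of exon the level of Scd2 was 7100 ± 1224 and that of Scd1 15.7 ± 12.5 in control siRNA untreated cells (SD, n = 3), and how reads that match both genes were divided is not given in the sources used here.

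Tet2 siRNA moved no gene of the set past the test. In untreated cells 0 of 33 passed, against 1 of all 12486 genes (0.00801%). Before adjustment 2 of 33 were under 0.05, and 10.8% of all genes (limma). The differences were below 0 for 28 of 33 genes, with a median of −0.15. Over all genes 6627 of 12486 were below 0, with a median of −0.03. The microglia and macrophage marker list also differed: its 13 genes summed to 79588 to 90560 normalised reads in control siRNA untreated libraries and 43284 to 68449 in Tet2 siRNA untreated ones. With LPS the sums were 77458 to 91224 and 41570 to 61434. The part of this difference in the lipid gene values was not tested.

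The smallest p in untreated cells belonged to Dhcr7, Abcg1 and Lpin1. Dhcr7 had 204, 348 and 319 normalised reads with Tet2 siRNA against 305, 418 and 843 (log2 difference −0.69, SE 0.31, adjusted p = 0.454, limma), and the difference was −0.30 without control siRNA untreated 3. Abcg1 had 3332, 1766 and 2530 against 4222, 2797 and 4002 (−0.55, SE 0.25, adjusted p = 0.457, limma), and −0.31 without Tet2 siRNA untreated 2. For both genes the ranges overlapped, and the control libraries are those also used as the untreated group of the LPS comparison. Lpin1 had 555, 470 and 526 against 659, 739 and 587, with all Tet2 siRNA libraries below all control ones (−0.33, SE 0.16, adjusted p = 0.464, limma). All 5 LXR genes had values below 0, from −0.55 to −0.16, without passing the test.

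**Figure D4:**
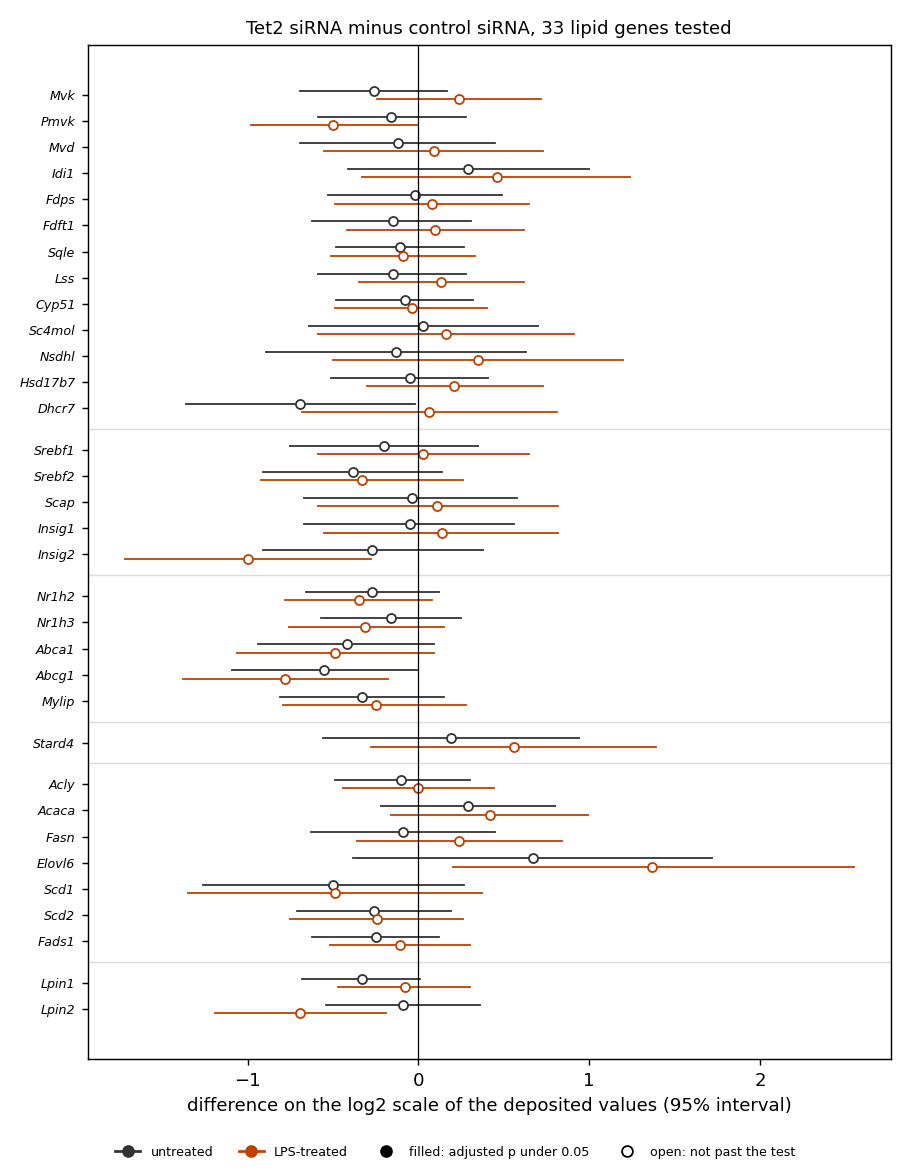
Tet2 siRNA minus control siRNA for the 33 lipid genes tested, on the log2 scale of the deposited values with 95% intervals from limma, in untreated (black) and LPS-treated (orange) cells. No point is filled, since none passed the test; Insig2 lies at −1.0 and Elovl6 at 1.37 in LPS-treated cells.

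In LPS-treated cells 0 of 33 genes passed, against 0 of 12486 (0%). Here 17 differences lay above 0 and 16 below, with a median of 0.03, and 10 of the 13 cholesterol enzymes lay above 0. Over all genes 6583 of 12486 lay below 0, with a median of −0.02. The count of cholesterol enzymes sets libraries 2 and 3 with Tet2 siRNA against libraries 1, 2 and 3 with control siRNA. Library 1 was the lowest control siRNA LPS library for 9 of 13 of these enzymes, and its part was not tested. Before adjustment 5 of 33 were under 0.05 (Pmvk, Insig2, Abcg1, Elovl6 and Lpin2), and 17.1% of all genes (limma). Insig2 had 887 and 1992 normalised reads with Tet2 siRNA and LPS against 2987, 2572 and 2528 with control siRNA and LPS. Both Tet2 siRNA libraries were below all the control ones, but they differed from each other more than the control libraries did (log2 difference −1.0, SE 0.33, adjusted p = 0.175, limma). Without Tet2 siRNA LPS 2 the difference was −0.43, and without Tet2 siRNA LPS 3 it was −1.57.

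Lpin2 had 1186 and 1379 normalised reads against 2426, 2205 and 1692 (−0.69, SE 0.23, adjusted p = 0.178, limma), without overlap. Abcg1 had 1061 and 1646 against 2693, 2252 and 1985 (−0.78, SE 0.28, adjusted p = 0.195, limma), also without overlap, and −0.47 without Tet2 siRNA LPS 2. Elovl6 had 944 and 424 against 148, 306 and 250 (1.37, SE 0.54, adjusted p = 0.229, limma), and the difference was 0.83 without Tet2 siRNA LPS 2. The library that was low for Insig2 and Abcg1, Tet2 siRNA LPS 2, was the high one for Elovl6, and it was the lower of its pair for all 5 LXR genes. The median difference of the LXR genes was −0.35, none of them past the test.

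The LPS responses of the 33 genes were not shown to differ between the siRNA groups. The difference of responses passed the test for 0 of 33 genes and for 0 of 12486 (0%), and before adjustment for 0 of 33 and 2.25% of all genes (limma). All adjusted p were 1. The differences of responses lay above 0 for 26 of 33 genes, with a median of 0.13, among them 12 of 13 cholesterol enzymes and 7 of 7 fatty acid enzymes. Over all genes 6170 of 12486 lay above 0, with a median of 0.00. The Tet2 siRNA LPS group holds no library 1. In Tet2 siRNA untreated cells that library was the lowest for 12 of 13 cholesterol and 7 of 7 fatty acid enzymes. Its part in the counts of enzymes above 0 was not tested. The response in Tet2 siRNA cells minus that in control siRNA cells was −0.73 on the log2 scale for Insig2 (SE 0.45, 95% interval −1.70 to 0.24), which moved to −0.16 without Tet2 siRNA LPS 2 and −1.30 without Tet2 siRNA LPS 3. For Lpin2 it was −0.60 (SE 0.31, 95% interval −1.28 to 0.07). For Mvk, the mevalonate kinase, it was 0.50 (SE 0.30, 95% interval −0.15 to 1.15), and 0.32 without control siRNA LPS 3. Mvk had 87.5, 115 and 91.3 normalised reads in control siRNA untreated libraries and 132, 94.7 and 67.7 with LPS, and in Tet2 siRNA cells 78.4, 81.1 and 71.0 untreated and 119 and 116 with LPS. For Lpin1 the difference of responses was 0.25 (SE 0.24, 95% interval −0.27 to 0.77).

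Further genes of lipid metabolism, 50 in a list of their own, were counted alongside. Of the 45 tested, 6 rose and 5 fell with LPS in control siRNA cells (24.4%), against 23.7% of all genes. In Tet2 siRNA cells 6 rose and 3 fell (20%), against 11.9% of all genes. The Tet2 siRNA comparisons passed for 0 of 45. Acsl1, which attaches coenzyme A to long-chain fatty acids, rose by 2.57 on the log2 scale under control siRNA (SE 0.19, adjusted p = 6.62e-07, limma) and by 1.75 under Tet2 siRNA (SE 0.21, adjusted p = 0.000104, limma). Acsl5, of the same family, rose by 1.17 (SE 0.19, adjusted p = 0.000438, limma) and 0.79 (SE 0.21, adjusted p = 0.0236, limma). Nceh1, which hydrolyses cholesterol esters, fell by 1.65 (SE 0.19, adjusted p = 3.65e-05, limma) and 1.54 (SE 0.22, adjusted p = 0.000303, limma). Agpat4, an acyltransferase of phosphatidate synthesis, rose by 1.05 (SE 0.18, adjusted p = 0.000791, limma) and 1.09 (SE 0.20, adjusted p = 0.00232, limma). Ppargc1b, a coactivator of SREBP1 and of oxidative genes, fell by 0.93 (SE 0.17, adjusted p = 0.00111, limma) and 1.02 (SE 0.18, adjusted p = 0.00225, limma).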

How the data were processed

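Directional polyA RNA libraries of BV2 cells were made with a ScriptSeq kit, per the labels' protocols. The submitters' processing notes name TopHat2 2.0.9 and Trim Galore 0.3.3, DESeq2 and build mm9. Read counter, annotation and strand setting: not given in the sources used here. The values deposited by the authors are variance-stabilised values on a log2 scale, with 4.02 as the lowest. Undoing the transform gave normalised reads and, per library, whole reads for 100% of values (tolerance 0.01), from which depth was taken. The filter asked for 2 or more libraries with a value 1 log2 unit or more over that lowest one, and 12486 genes met it. One limma 3.58.1 model (R 4.3.3) with a mean per group and a variance trend was fitted to the deposited values of all 11 libraries. Tests were two-sided with Benjamini-Hochberg adjustment over all genes kept, and passed at an adjusted p under 0.05. The fit was also run on simulated counts with the same spread setting for all genes, which real genes need not share. No result here rests on that run. Lengths for values per kilobase are merged exons of GENCODE vM21. Values in every library were to be printed for genes that changed by at least 1 log2 unit with LPS and for the 3 with the smallest p in each Tet2 comparison; further genes printed in full were chosen after their values were seen. The genes, lists and tests were chosen with earlier results of these data known. The marker lists gave 13 of 15 genes in the table for microglia and macrophages, and 0 of 4 astrocyte, 1 of 4 neuron, 2 of 4 oligodendrocyte, 0 of 3 endothelial, 0 of 4 fibroblast and 1 of 4 hepatocyte or adipocyte genes past the filter. Alternatives covered the filter, scaling, variance trend, the libraries fitted, a replicate block, voom and each library left out. Some genes of the list of further lipid genes are counted but not reported here by name.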

Additional observations from a re-analysis of the deposited data

How the results depend on the processing

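With LPS in control siRNA cells, 7 genes passed; 3 passed with no filter on low values (Insig2, Mylip and Lpin1), 4 with only the groups compared in the fit (Insig2, Mylip, Scd2 and Lpin1), and 4 to 8 with each library left out. In Tet2 siRNA cells, 4 passed; 1 passed with no filter (Lpin1), 3 with only the groups compared (Srebf2, Mylip and Lpin1, so that Insig2 and Scd2 were lost and Srebf2 gained), and 1 to 4 with each library left out, 1 without Tet2 siRNA LPS 3. In control siRNA cells 4 passed without control siRNA LPS 1, control siRNA LPS 3 or Tet2 siRNA untreated 3. The cause was not tested. A voom fit to the recovered reads passed 5 and 4 genes (2935 and 1515 of all genes). Without both shallowest libraries, chosen after seeing the data, 5 and 5 passed; Lss, Dhcr7 and Fads1 did not, and Srebf2 in control and Abcg1 in Tet2 siRNA cells did. Lpin1 kept its call under every alternative run in both siRNA groups, and Insig2 and Mylip in control siRNA cells. The Tet2 siRNA comparisons and the difference of responses passed 0 of the 33 genes under every alternative run. Direction was compared with the main fit only for the 7 genes that passed with LPS and, in the other comparisons, for those with the smallest p. None of these was reversed. The direction of the remaining genes was not compared. With the replicate number as a block, 11 and 6 genes passed with LPS, adding Mvd, Nsdhl, Abcg1 and Stard4 in control and Mvd and Abcg1 in Tet2 siRNA cells. The number was not taken to pair the libraries: 8 of 15 same-numbered pairs had deviations correlated above 0.1 (range −0.283 to 0.633), and 5 of 11 libraries correlated best with their own number. Groups of 2 or 3 libraries limit what could be detected.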
